A study of Homo sapiens with 5 samples.

Results

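ALK, EML4, MET, AXL, ROS1, RET, IGF1R and FGFR1 were followed across the nuclei of mixed lung adenocarcinoma cell lines, and were found by gene symbol as 8 of the 36601 gene rows of the 80% count matrix. Each symbol had 1 row. The lines were A549, H838, HCC827, H1975 and H2228, each cultured on its own in RPMI medium with fetal calf serum and with no drug named in the labels, then frozen, mixed equally and taken as nuclei into droplets that were divided into an 80% and a 20% portion. RNA and open chromatin (ATAC, cuts by a transposase) were read in the same nuclei, in 1 library of each kind per portion, so there were no replicates and no test across libraries was made. All 5 lines are in every library and the labels give no line per nucleus.

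Of the 8 genes, 7 encode receptor tyrosine kinases, which sit in the cell membrane, bind a ligand outside and phosphorylate tyrosines inside the cell. EML4 encodes a microtubule-binding protein. In lung adenocarcinoma, ALK, ROS1 and RET are known for gene fusions that join their kinase part to the start of another gene, and MET, IGF1R, AXL and FGFR1 are known as receptors that can take over signalling when another kinase is blocked. H2228 is known for a fusion of EML4 and ALK. In such fusions the break in ALK usually lies in intron 19, and the kinase is encoded from exon 20 on. Gene counts do not separate a fusion transcript from a normal one.

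The 80% portion held 6557 nuclei with 95455518 RNA molecules (UMIs) and 63920767 ATAC counts, and the 20% portion held 1286 nuclei with 14346346 UMIs and 12850543 ATAC counts. Barcodes present in both portions numbered 159. Clustering of the RNA gave 5 clusters in the 80% portion, numbered 0 to 4 by size, with 2491, 1460, 1452, 820 and 334 nuclei and median depths between 9154 and 15713 UMIs. They are given by number and by their leading autosomal genes, and none was named as a cell line. NLGN1 led cluster 0, RBFOX3 and HNF4A cluster 1, ZIC1 stood among the leading genes of cluster 2, PLK5 led cluster 3 and RPE65 cluster 4. The 15 leading genes had between 0 and 4.2% of their own cluster's level in the other clusters. They were chosen for low levels elsewhere, so this range does not bound what free RNA or mixed droplets can leave. Clusters computed from the ATAC counts alone held between 96.7% and 99.4% of each RNA cluster's nuclei in the matching cluster. Their weighting was chosen after equal weights had merged RNA clusters 0 and 2, so this match is not independent of the RNA clusters. Levels are given as counts per 1000000 counts of a cluster (CPM), of all UMIs for RNA and of all counts in peaks for ATAC. Of the 6 epithelial genes, the keratins KRT7, KRT8 and KRT18 had at least 302, 512 and 725 CPM in every cluster. The other epithelial genes varied more, with KRT19 between 104 CPM in cluster 2 and 1530 in cluster 4, EPCAM between 23.4 and 749 CPM and CDH1, which encodes E-cadherin, between 4.70 and 197 CPM in the same clusters. NKX2-1, a lung lineage factor, ranged from 2.30 CPM in cluster 1 to 74.2 CPM in cluster 4, NAPSA from 1.78 to 67.5 CPM, and SFTPB had 26 UMIs in all. The defining immune and endothelial genes PTPRC, CD3E, VWF and CDH5 were at or below 1.41 CPM everywhere, while CD68 reached 43.7 and PECAM1 8.80 CPM. Among fibroblast genes, COL1A1 had 243 CPM in cluster 0 and at most 74.5 CPM elsewhere, whereas PDGFRB was at or below 2.80 and DCN at or below 0.0522 CPM.

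The stretch before a transcription start shows what kind of promoter each gene has, and 4 stretches are shown because the ATAC result below turns on them. Each holds the 250 bases before a RefSeq start (GRCh38.p14), 5′ to 3′ on the gene's own strand. The ALK gene has a start at its 5′ end (chr2:29921587-29921836, minus strand) and a second one inside intron 19 (chr2:29223824-29224073, minus strand). The EML4 stretch is chr2:42169103-42169352 on the plus strand, and the ROS1 stretch is chr6:117425943-117426192 on the minus strand. Capitals mark matches, on either strand, to 5 short motifs. The GC box was searched as GGGCGG and the CCAAT box by those letters. The TATA box was searched as TATAAA and the E-box as CACGTG. The AP-1 motif was searched as TGANTCA.
ALK, 5′ start: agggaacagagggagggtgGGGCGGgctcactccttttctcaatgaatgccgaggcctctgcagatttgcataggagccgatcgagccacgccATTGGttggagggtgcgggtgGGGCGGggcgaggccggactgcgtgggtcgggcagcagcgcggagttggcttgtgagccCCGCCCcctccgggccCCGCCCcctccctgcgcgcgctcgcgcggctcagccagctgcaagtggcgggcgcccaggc
ALK, intron 19 start: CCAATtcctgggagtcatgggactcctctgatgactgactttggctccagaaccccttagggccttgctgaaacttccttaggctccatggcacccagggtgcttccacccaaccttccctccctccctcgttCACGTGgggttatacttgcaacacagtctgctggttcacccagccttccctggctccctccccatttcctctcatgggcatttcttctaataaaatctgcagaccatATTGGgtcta
EML4: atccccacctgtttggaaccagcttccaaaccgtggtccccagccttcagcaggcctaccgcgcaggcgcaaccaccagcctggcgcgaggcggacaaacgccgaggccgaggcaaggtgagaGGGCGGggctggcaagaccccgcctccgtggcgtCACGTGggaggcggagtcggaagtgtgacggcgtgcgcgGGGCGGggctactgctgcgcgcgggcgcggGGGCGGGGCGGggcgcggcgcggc
ROS1: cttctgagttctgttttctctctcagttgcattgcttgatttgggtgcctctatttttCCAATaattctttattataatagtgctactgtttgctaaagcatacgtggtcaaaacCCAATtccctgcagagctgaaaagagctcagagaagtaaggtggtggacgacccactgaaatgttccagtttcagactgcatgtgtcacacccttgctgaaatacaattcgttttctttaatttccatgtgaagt
Both ALK stretches lay whole inside an ATAC peak, and so did those of EML4 and ROS1. The 5′ stretch of ALK was 71.6% G and C with 24 CpG sites, 4 GC boxes and 1 CCAAT match, whereas the intron 19 stretch was 53.6% G and C with 2 CpG sites, no GC box, 2 CCAAT matches and 1 E-box. EML4 had 74.4% G and C, 33 CpG sites, 4 GC boxes, of which the last pair overlap, and 1 E-box, and ROS1 had 40% G and C, 3 CpG sites and 2 CCAAT matches. Over all 35116 RefSeq promoters the median was 58.0% G and C with 11 CpG sites. A GC box was present in 42.6% of them, a CCAAT match in 32.0%, a TATA box in 10.7%, an AP-1 motif in 6.57% and an E-box in 6.34%. Such a match is a run of letters and does not show that a factor binds. RefSeq stretches were matched for 7 of the 8 genes.

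ALK RNA was low in every cluster and highest in cluster 0. ALK (ENSG00000171094, chromosome 2, 29192774 to 29921586 on hg38, minus strand, 29 exons) encodes a receptor that is normally used in the developing nervous system. In clusters 0 to 4 of the 80% portion its RNA level was 14.8, 4.06, 3.76, 7.13 and 12.7 CPM, from 626, 60, 72, 102 and 63 UMIs. Clusters 0 and 4 stood at the top and clusters 1 and 2 at the bottom. The ratio of cluster 0 to cluster 4 was 1.17 (95% interval 0.899 to 1.54 from counting error), so these neighbours did not differ beyond that error, nor did clusters 1 and 2. Cluster 0 had 2.65 times the level of all other nuclei together (2.31 to 3.05). In the 20% portion the levels were 17.7, 6.63, 3.08, 4.61 and 12.4 CPM, again with cluster 0 first and cluster 4 next, but there cluster 4 rested on 8 UMIs and no neighbours in the order differed beyond their intervals. A UMI of ALK was found in 20.9% of the nuclei of cluster 0 (19.3 to 22.5%, exact binomial) and in 3.70% of those of cluster 1 (2.79 to 4.80%). After every nucleus was thinned to 2000 UMIs these shares were 2.34% and 0.960%. The levels of clusters 1 to 4 were between 25.4% and 85.8% of that of cluster 0. How much of these levels free RNA or mixed droplets left was not tested. All intervals and limits given here cover counting error only.

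Along ALK, cluster 0 had the least ATAC signal in the 5′ part of the gene and the most at the second start in intron 19. The peak in intron 19 (chromosome 2, 29223708 to 29224546) lies 697.5 kb from the 5′ start and covers the intron 19 sequence shown above. In clusters 0 to 4 it had 12.97, 1.5, 4.79, 6.28 and 3.23 CPM of all ATAC counts, from 382, 17, 45, 61 and 13 counts. Cluster 0 was 2.07 times cluster 3, the next, and their 95% Poisson intervals (11.7 to 14.3 and 4.80 to 8.06) did not overlap. The 20% portion gave 14.1, 1.36, 2.83, 6.68 and 4.26 CPM, with the same cluster highest. Without the nuclei called doublets the 80% portion gave 13.7, 1.44, 4.65, 5.81 and 3.45 CPM. A count at this peak was found in 185 of the 2491 nuclei of cluster 0, or 7.43% (6.43 to 8.53%), and in 10 of the 1460 nuclei of cluster 1, or 0.685% (0.329 to 1.26%). Of the nonzero ATAC counts 90.1% were even numbers, so counts may come in pairs and intervals from them may be too narrow.

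The 27 peaks between the 5′ start and exon 19 together had 19.4 CPM in cluster 0, against 83.5, 79.0, 111.5 and 81.7 CPM in clusters 1 to 4. On the log2 scale cluster 0 was at -2.20 relative to the mean of the other clusters. In the 20% portion, with 9 peaks, cluster 0 had 12.5 CPM and the others 54.8, 44.4, 80.2 and 86.7 CPM. Cluster 0 was below every other cluster in both portions. In this stretch and at the 5′ start together, 11 peaks had at least 100 counts. In cluster 0 all 11 were below the mean of the other clusters. Cluster 0 was the lowest in 7 of them and the highest in none. Of all 100354 peaks with at least 100 counts, 23.6% were highest in cluster 0. The shares of all peaks that were lowest in cluster 0, or below the mean of the others there, were not computed. So the counts of such peaks in ALK have no background beside them. A peak in intron 1 (29747827 to 29748706), 173 kb into the gene, had 8.08 CPM in cluster 0 against 45.4 in cluster 3 and 34.5 in cluster 4. Another one in intron 1 (29878655 to 29879571) had 22.1 CPM in cluster 1 and at most 1.49 CPM in the rest. Of all peaks with at least 100 counts, 22.3% had a highest cluster at least 2 times the next. At the 5′ start itself (29921242 to 29922101) cluster 1 was highest, with 19.3 CPM, and cluster 0 had 6.18 CPM, within the 3.94 to 6.89 CPM of clusters 2 to 4. From exon 20 to the end of the gene cluster 0 had 4.14 CPM, within the range of 3.20 to 11.9 CPM of the others.

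Summed over the peaks of each step, the low signal of cluster 0 was deeper inside ALK, up to the intron 19 peak, than around it. In the 250 kb before the 5′ start cluster 0 was at -0.356 on the log2 scale relative to the mean of the others, in the 500 kb after the end of ALK at -0.504, and in 250 kb steps farther out at no less than -0.834. Inside the gene it was at -2.01 in the first 250 kb, at -3.28 in the next 250 kb and at -2.08 from there to just before the intron 19 peak. The peak at the 5′ start is counted in the 250 kb before it. Cluster 0 was the lowest in each of these steps inside ALK, but it was not alone in being low. Cluster 2 was at -1.31 in the first 250 kb and cluster 1 at -1.07 in the next. Cluster 0 was at -0.0701 over the whole stretch between ALK and EML4 and at -0.0606 over chromosome 2. Over the whole ALK gene body cluster 0 was at -1.36, which is less than 0.5 of the mean of the other clusters, a limit that was chosen after these values were seen. Of the 16876 genes with at least 1000 ATAC counts in the gene body, 5.4% were at 0.5 of that mean or less in cluster 0. None of the other members with that many counts was, and their values in cluster 0 lay between -0.638 for IGF1R and 0.819 for FGFR1. In other clusters such low values did occur, with MET at -1.55 in cluster 2 and AXL at -1.49 in cluster 3. Of the 9 genes within 500 kb of ALK with at least 100 UMIs, 0 were highest in cluster 0, against 22.1% of all genes. So few genes do not separate this count from that share.

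**Figure D1:**
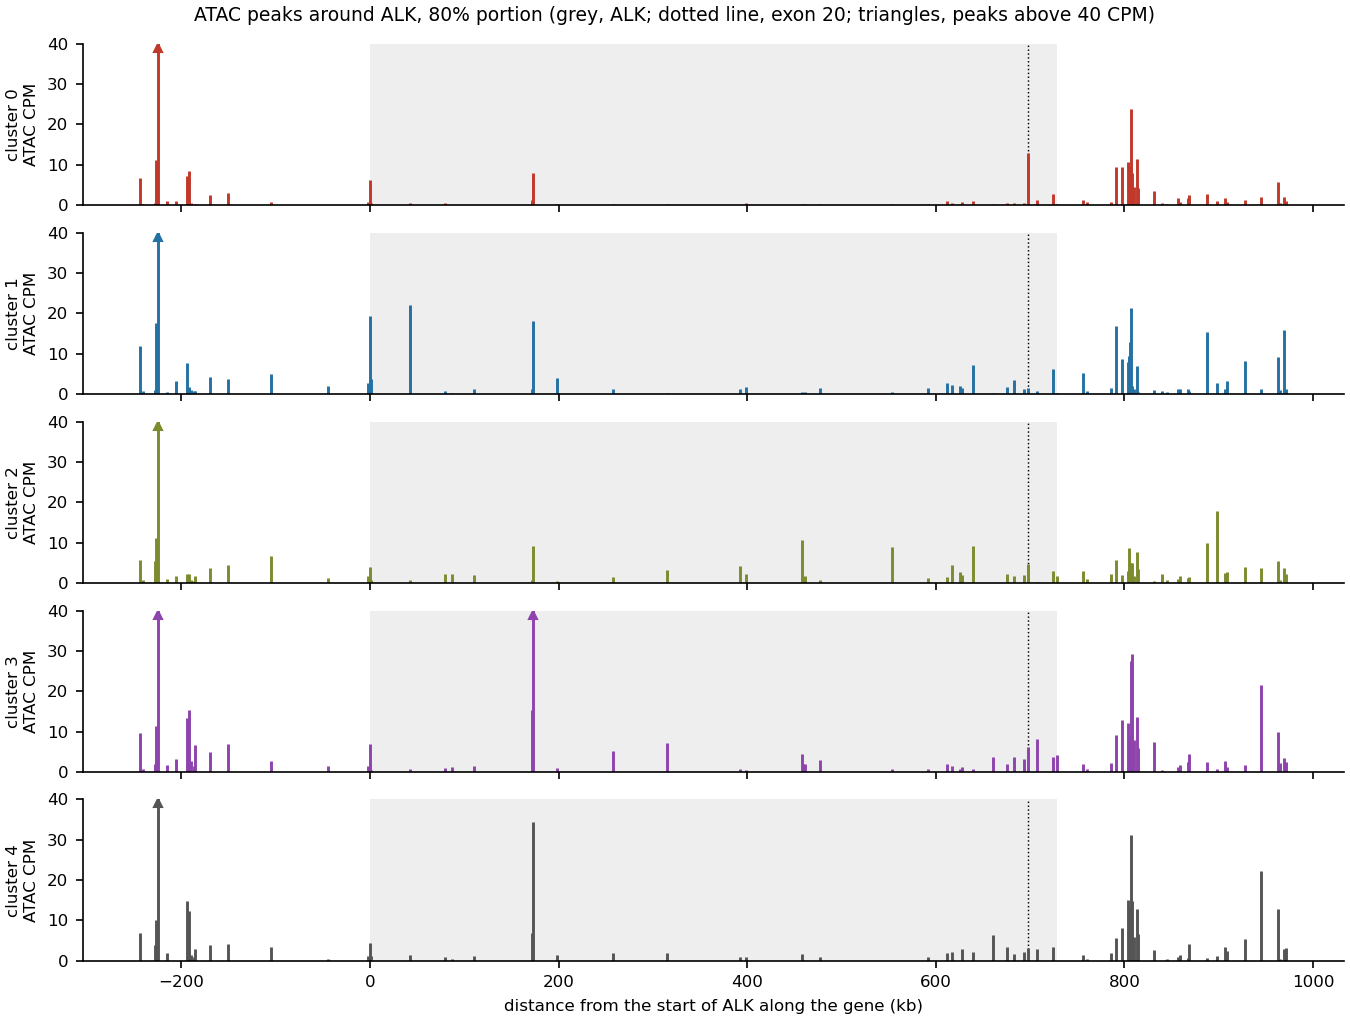
ATAC counts per 1000000 (CPM) in each peak around ALK (y axis) against the distance from its 5′ start in kb (x axis), with 1 row for each RNA cluster of the 80% portion. Grey marks the gene and the dotted line exon 20. Cluster 0 has few counts between the 5′ start and exon 19, and its peak at 697.5 kb stands at 12.97 CPM, above those of the other clusters.

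EML4 RNA was highest in cluster 1, not in the cluster with the most ALK. EML4 (ENSG00000143924, chromosome 2, 42169353 to 42332548, plus strand, 23 exons) had 156, 349, 130, 153 and 195 CPM in clusters 0 to 4. Cluster 1 had 1.80 times the level of cluster 4, the next (1.68 to 1.93), and every cluster had at least 965 UMIs. Clusters 0 and 3 did not differ beyond their intervals. The 20% portion gave 170, 348, 134, 158 and 215 CPM, in the same order. The ATAC peak at its start (42168900 to 42169773) also had most counts in cluster 1, with 62.2 CPM, against 32.5 in cluster 0 and 35.7 to 41.0 CPM in the rest. A peak 22.1 kb into intron 1 (42190975 to 42191861) had 11.5 CPM in cluster 1, whereas the other clusters reached 0.781 CPM. Of the 9 peaks in or near EML4 with at least 100 counts, 3 had a highest cluster at least 2 times the next, against 22.3% of all such peaks. Over the stretch between ALK and EML4 cluster 1 was higher than the others as well, at 0.402 in ATAC and at 0.377 in the summed RNA of the 112 genes that start there, both log2 values relative to the mean of the other clusters. Cluster 1 was also at 0.198 in ATAC and at 0.175 in summed RNA over the whole of chromosome 2. In the 500 kb after the end of ALK and of EML4 it was at 0.399 and 0.443 in ATAC. The part of these differences in the level of EML4 was not tested.

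ROS1 RNA was mostly found in cluster 0. ROS1 (ENSG00000047936, chromosome 6, 117287353 to 117425942, minus strand, 44 exons) encodes a receptor close to ALK and binds NELL2. Its levels in clusters 0 to 4 were 55.9, 1.42, 2.82, 8.95 and 4.84 CPM, from 2361, 21, 54, 128 and 24 UMIs. Cluster 0 had 6.24 times the level of cluster 3 (5.22 to 7.52) and 39.3 times that of cluster 1 (25.6 to 63.6). The level of cluster 1 was 2.55% of that of cluster 0, and clusters 2, 4 and 3 were at 5.05%, 8.66% and 16.0%. How much of these levels free RNA left was not tested. The 20% portion gave 56.5, 2.37, 3.39, 9.22 and 1.55 CPM. A UMI was found in 45.5% of the nuclei of cluster 0 and in 1.23% of those of cluster 1, whose median depths were 15447 and 9154 UMIs, and after thinning in 10.9% and 0.274%. Without the doublets cluster 4 fell from 24 to 7 UMIs of ROS1, or 1.64 CPM, whereas cluster 3 kept 8.89 CPM.

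The ATAC peak at the ROS1 start (117425640 to 117426451), which covers the ROS1 sequence shown above, had 4.25 CPM in cluster 0, from 125 counts. It had 0.971, 1.44 and 0.496 CPM in clusters 1, 3 and 4, and 0 of the 9388352 counts of cluster 2, which allows up to 0.320 CPM. Cluster 0 thus had 2.95 times the signal of cluster 3. No peak at this start is listed in the 20% portion, so there is no value to set beside it. The ROS1 fusion partners CD74, the invariant chain of MHC class II, and SLC34A2, a phosphate transporter, were also highest in cluster 0. They had 389 CPM against at most 72.8 elsewhere and 55.7 CPM against at most 6.65. Of the 12 listed partner genes of ALK, ROS1 and RET fusions, 4 were highest in cluster 0, as were 22.1% of all genes. Others were highest elsewhere, with 2 in cluster 1 (EZR among them), 3 in cluster 2 and 3 in cluster 3 (SDC4 among them). GOPC, the neighbour of ROS1 on chromosome 6, was highest in cluster 2, with 136 CPM against 75.7 to 88.1 CPM.

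RET had 60 UMIs in the whole 80% portion, under the minimum of 100 that was set for the comparison with all genes. RET (ENSG00000165731, chromosome 10, 43077064 to 43130351, plus strand) is the receptor for GDNF family ligands. Its UMIs in clusters 0 to 4 numbered 54, 4, 1, 1 and 0, and 0 of the 4961551 UMIs of cluster 4 allow up to 0.605 CPM. Cluster 0, at 1.28 CPM, had 11.3 times the level of the other nuclei together (4.88 to 32.2). In the 20% portion 9 of 11 UMIs were in cluster 0. The peak at the RET start (43076611 to 43077538) had 9.10 CPM in cluster 0, 6.35 in cluster 1, 2.56 in cluster 2, 1.03 in cluster 3 and 0.993 in cluster 4. The intervals of clusters 0 and 1 (8.043 to 10.26 and 4.971 to 8.001) almost touched. As ATAC counts may come in pairs, these intervals may be too narrow to separate the 2 clusters. Cluster 1 was above clusters 2 to 4 beyond the intervals in the 80% portion, but not above cluster 2 in the 20% portion. As read from the 20% portion, that peak had 12.1, 4.98 and 6.14 CPM in clusters 0 to 2, and no counts in clusters 3 and 4, which allows up to 1.82 and 4.26 CPM.

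MET, the receptor for hepatocyte growth factor, was highest in cluster 4 and lowest in cluster 2. MET (ENSG00000105976, chromosome 7, 116672196 to 116798377, plus strand) had 258, 219, 45.2, 215 and 489 CPM in clusters 0 to 4. Cluster 4 was 1.89 times cluster 0 (1.81 to 1.98) and 10.8 times cluster 2 (10.0 to 11.7), and clusters 1 and 3 did not differ beyond their intervals. The 20% portion gave 261, 209, 52.7, 206 and 458 CPM. HGF, its ligand, was also highest in cluster 4, with 19.8 CPM and at most 0.677 CPM elsewhere. Signal at the MET start (116671694 to 116672627) ranged from 28.4 CPM in cluster 2 to 60.2 CPM in cluster 1, and cluster 4 had 54.4 CPM. Some peaks inside MET were further apart. Of the 17 peaks in or within 5 kb of MET with at least 100 counts, 12 had a highest cluster at least 4 times the lowest. In 1 of them the highest was at least 2 times the next. Over all 100354 peaks with that many counts these shares were 58.6% and 22.3%. A peak in intron 1 (116689513 to 116690440) had 17.3, 22.3 and 20.6 CPM in clusters 0, 3 and 4 but 1.68 in cluster 1 and 0.639 CPM in cluster 2. One in intron 14 (116772297 to 116773254) had between 6.93 and 18.6 CPM in the other clusters and 0 counts in cluster 2, which allows up to 0.320 CPM, while the 20% portion had 2 counts there, or 0.945 CPM.

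IGF1R, which binds insulin-like growth factors, was highest in cluster 2. IGF1R (ENSG00000140443, chromosome 15, 98648539 to 98964530, plus strand) had 173, 540, 923, 185 and 152 CPM in clusters 0 to 4, and no neighbours in this order overlapped. Cluster 2 was 1.71 times cluster 1 (1.66 to 1.76) and 6.06 times cluster 4. The 20% portion gave 178, 531, 964, 182 and 203 CPM, where clusters 4, 3 and 0 did overlap. Peaks at the start summed to 47.6, 118, 136, 52.4 and 50.6 CPM, in which clusters 2 and 1 again stood above the others. A peak over exon 5 (98899314 to 98900258) had 79.3 CPM in cluster 2 and between 1.49 and 2.91 CPM in the rest, or 27.2 times the next, and 102.5 CPM against at most 3.17 in the 20% portion. Of the 44 peaks in or near IGF1R with at least 100 counts, 9 had a highest cluster at least 2 times the next, against 22.3% of all such peaks. Of the adaptors that pass on its signal, IRS1 and IRS2 were lowest in cluster 2, at 11.4 and 11.2 CPM, against at least 63.8 and 19.2 CPM elsewhere. Other adaptors went the other way. SHC1 and GAB2 were highest in cluster 2, at 76.4 and 101.5 CPM, against at most 55.5 and 35.5 CPM elsewhere. Of the 14 listed adaptors and regulators, 4 were highest in cluster 2, as were 25.3% of all genes.

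AXL, the receptor for GAS6, was highest in cluster 0, and in the 80% portion each cluster differed from the next beyond the intervals. AXL (ENSG00000167601, chromosome 19, 41219223 to 41261766, plus strand) had 81.6, 48.4, 37.7, 29.4 and 19.6 CPM in clusters 0 to 4, and 93.6, 71.5, 54.3, 29.7 and 26.3 CPM in the 20% portion, where clusters 1 and 2 and clusters 3 and 4 overlapped. The signal at its annotated starts ran in another order, with 98.5, 169, 101, 35.3 and 60.6 CPM, and cluster 1 was highest. Cluster 1 was also highest in 13 of the 15 genes within 500 kb of AXL with at least 100 UMIs, against 19.2% of all genes.

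FGFR1 (ENSG00000077782, chromosome 8, 38400215 to 38468834, minus strand), a receptor for fibroblast growth factors, had 89.8, 111, 66.8, 25.4 and 25.6 CPM in clusters 0 to 4. Clusters 3 and 4 did not differ beyond their intervals, and cluster 1 was 1.24 times cluster 0 (1.17 to 1.32). The 20% portion gave 95.8, 121, 82.3, 22.0 and 24.8 CPM. At the annotated starts the ATAC signal was 21.4, 25.9, 25.7, 11.8 and 14.2 CPM, so clusters 3 and 4 were low in both assays, and clusters 1 and 2 differed by 1.01 times only. FGF2, one of its ligands, was low in cluster 3 as well, with 5.38 CPM against 27.6 to 46.8 CPM in the others. FRS2, the adaptor of FGF receptors, ranged from 58.2 to 105 CPM.

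**Figure D2:**
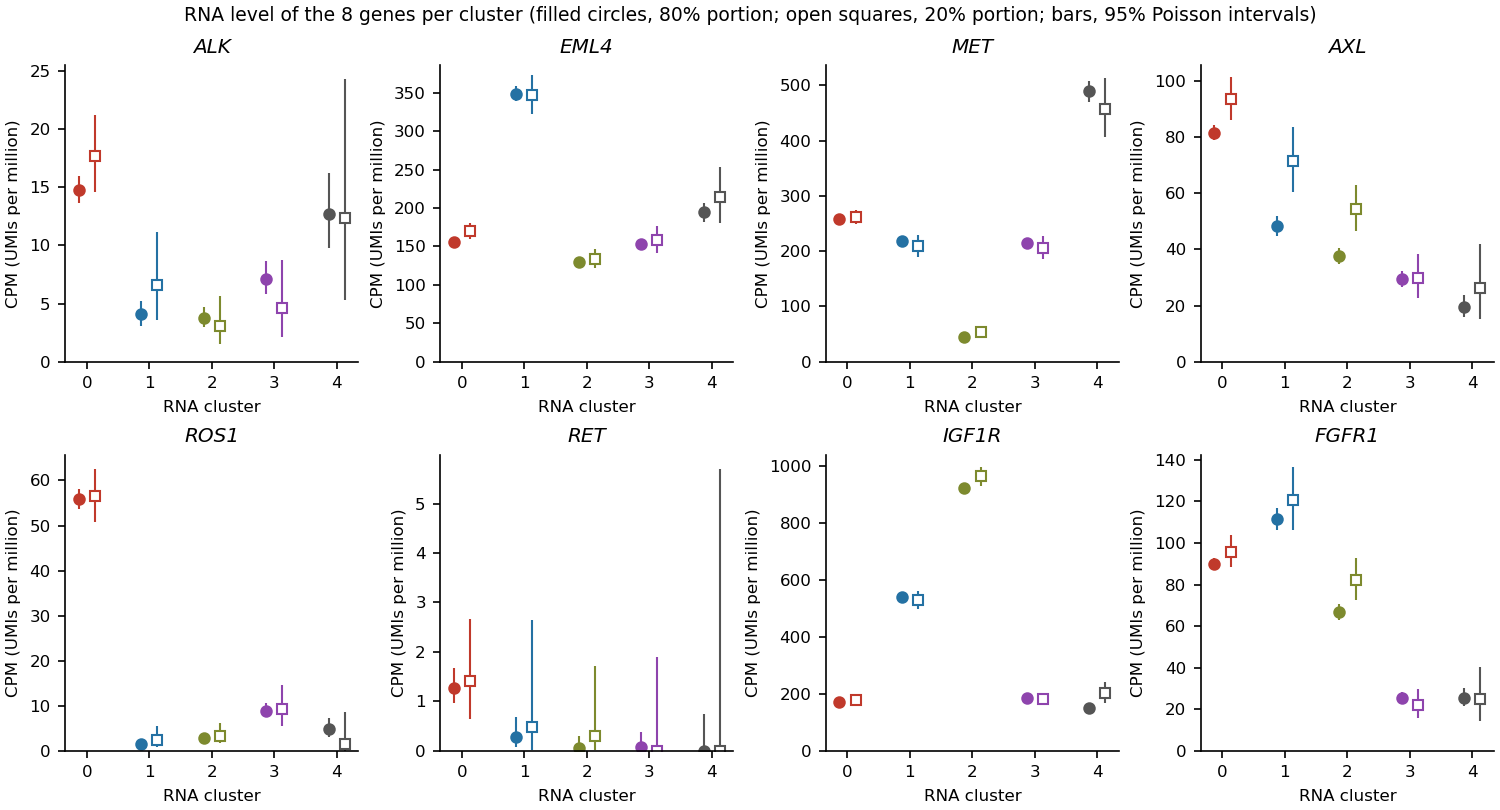
RNA level in CPM (y axis) of each of the 8 genes in the 5 RNA clusters (x axis). Filled circles are the 80% portion and open squares the 20% portion, with bars for 95% Poisson intervals. The highest cluster is the same in both portions for all 8 genes, with ROS1 at 55.9 CPM in cluster 0 and IGF1R at 923 CPM in cluster 2. Nuclei of the 20% portion were placed by the likeness of their RNA to the 80% clusters, so this match is partly built in. No share over all genes was computed for it, and RET had 11 UMIs in the 20% portion.

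Among the 8 genes, 6 had at least 4 times more RNA in their highest cluster than in their lowest, where a cluster with fewer than 3 UMIs was set to 3 UMIs. These were MET, AXL, ROS1, RET, IGF1R and FGFR1. ALK, at 3.94, lay just outside this limit, and AXL, at 4.17, just inside it, and in the 20% portion, at 5.74 and 3.56, they changed sides. Of the 16913 genes with at least 100 UMIs, 34.7% met the same limit. ROS1 and RET, 2 of the 8, were at least 2 times higher in one cluster than in the next, as were 17.5% of all genes, and 4.25% of all genes were so in cluster 0. RET had fewer than the 100 UMIs asked of all genes, and its place in both counts rests on clusters set to 3 UMIs. With median-of-ratios size factors MET passed the second limit and RET did not, so the count of 2 was made up of ROS1 and MET. Clusters 0 to 4 were highest for 4, 2, 1, 0 and 1 of the 8 genes, and for 22.1%, 19.2%, 25.3%, 18.1% and 15.4% of all genes. ALK, ROS1, RET and AXL shared cluster 0. At the annotated starts, 3 of the 8 genes (AXL, ROS1 and RET) had a spread of at least 4 in ATAC, against 26.3% of the 20435 genes with at least 100 counts there. RNA and start-site ATAC had the same highest cluster in 5 of the 8, which were EML4, ROS1, RET, IGF1R and FGFR1. For FGFR1, cluster 1 led cluster 2 in ATAC by 1.01 times only. No share over all genes was computed for this count or for that of the 20% portion, so neither shows how closely the assays match. The 20% portion had start-site peaks for 7 of the genes, and 4 of them (ALK, EML4, RET and IGF1R) had the same highest cluster as in RNA. ALK was then highest in cluster 0, with 22.2 CPM (18.6 to 26.2) against 20.8 (15.3 to 27.8) in cluster 1, and FGFR1 in cluster 2, with 20.3 CPM (14.7 to 27.4) against 18.6 (13.3 to 25.2), and both pairs of intervals overlapped. The ALK value sums the 5′ start, highest in cluster 1, and the intron 19 start, highest in cluster 0.

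**Figure D3:**
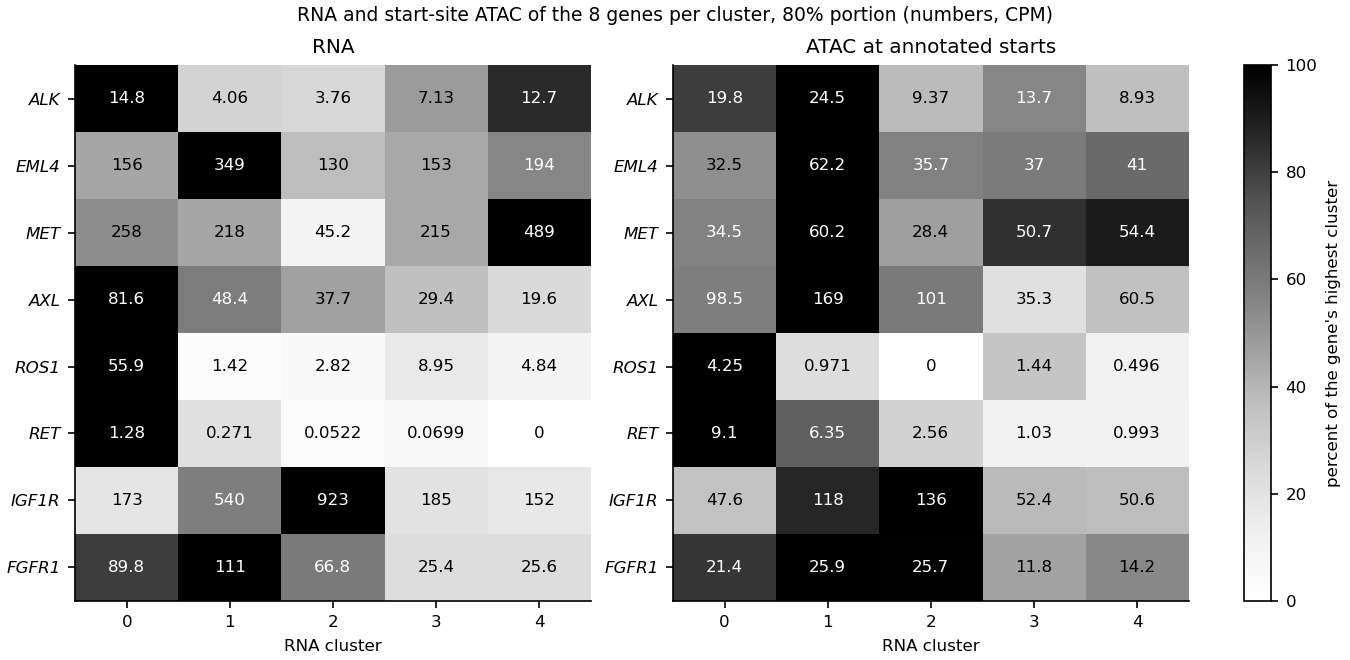
RNA (left) and ATAC at the annotated starts (right) of the 8 genes (rows) in the 5 RNA clusters (columns) of the 80% portion. Numbers are CPM and the shade is the percent of the gene's own highest cluster. ROS1 and RET are darkest in cluster 0 in both assays, whereas ALK and AXL are darkest in cluster 0 in RNA and in cluster 1 in ATAC.

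Some members varied within a cluster when it was divided further. At a resolution of 0.8 there were 19 finer clusters, of which 15 had at least 50 nuclei and fewer than 50% doublets. ROS1 ranged from 25.7 CPM (20.4 to 32.0) to 90.1 CPM (82.9 to 97.7) across the 7 finer clusters of cluster 0, more than counting error. Every one of these 7 was above the rest of the 15, where ROS1 reached at most 12.8 CPM. A finer cluster of 43 nuclei, mostly of cluster 4 and left out for its size, had 17.0 CPM from 7 UMIs. ALK ranged from 11.2 CPM (7.83 to 15.6) to 23.3 CPM (15.0 to 34.7) in the same 7, and the intervals of the lowest and the highest overlapped. The intron 19 peak of ALK had between 5.93 and 22.4 CPM there. In cluster 3 that peak had 11.1 CPM (8.10 to 14.8) in a finer cluster of 378 nuclei and 2.81 CPM (1.64 to 4.51) in one of 462 nuclei, in which doublets made up 11.9% and 10.6%. ALK RNA in these was 5.53 and 8.68 CPM, the other way round. In cluster 4 the 307 nuclei of its largest finer cluster had 10.4 CPM of ALK (7.68 to 13.8). The other 15 UMIs lay in the finer cluster of 43 nuclei, 62.8% of which were in cluster 4. Its 36.4 CPM of ALK was the highest among the 19 finer clusters, on those 15 UMIs. FGFR1 differed within cluster 1, with 65.1 CPM in 595 nuclei and 160.5 CPM in 655 nuclei, and MET within cluster 3, with 157 and 257 CPM. Nuclei of cluster 0 with a count at the intron 19 peak had 15.8 CPM of ALK RNA (11.9 to 20.7) and those without one 14.7 CPM (13.5 to 16.0), so no difference was detectable at this depth.

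**Figure D4:**
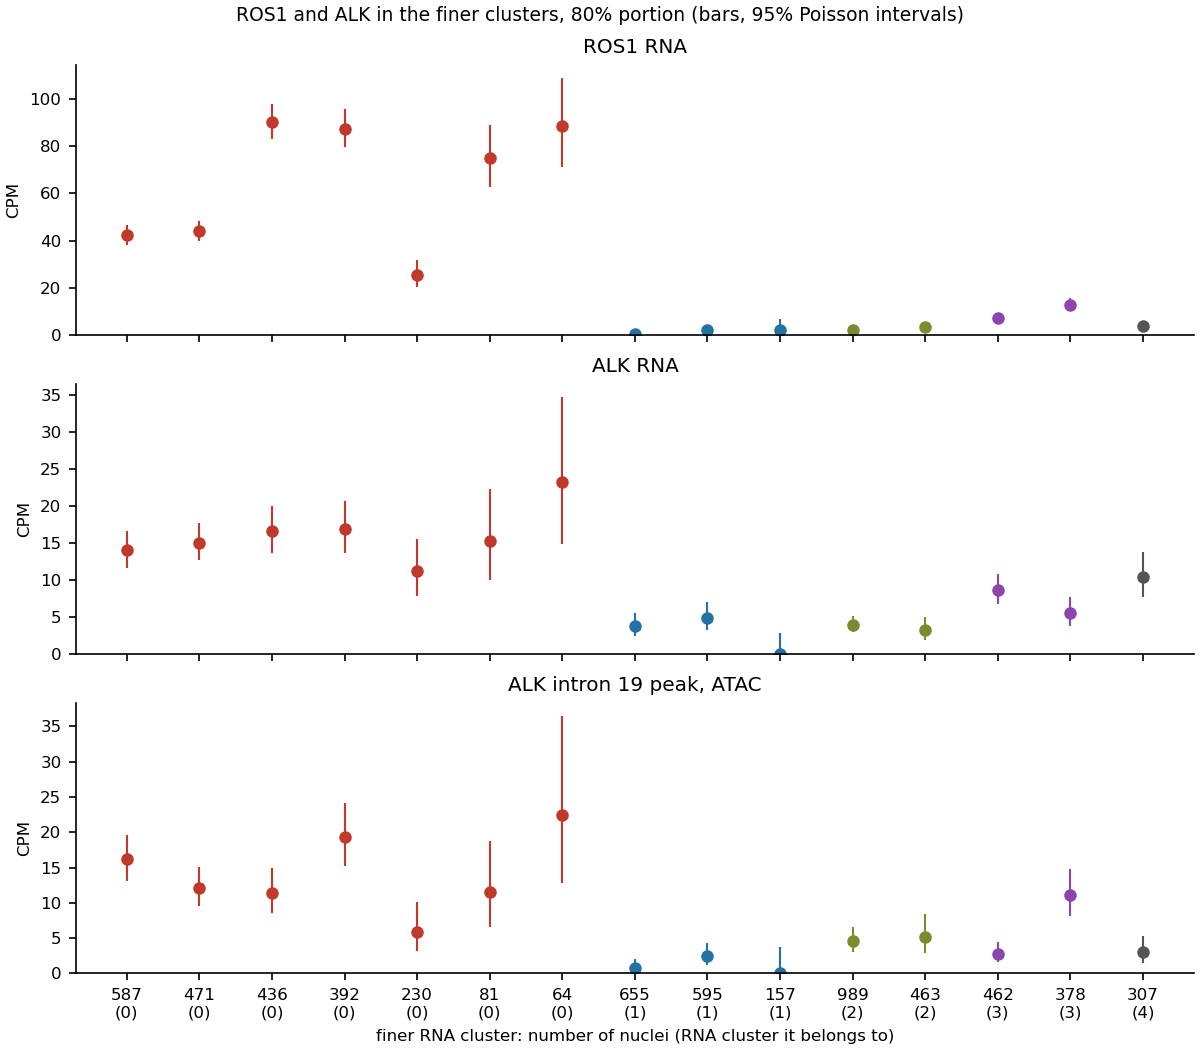
CPM (y axis) of ROS1 RNA, ALK RNA and the ALK intron 19 ATAC peak in 15 finer clusters (x axis, labelled by number of nuclei and by RNA cluster) of the 80% portion, with 95% Poisson intervals. ROS1 stands between 25.7 and 90.1 CPM in the 7 finer clusters of cluster 0, and the intron 19 peak is also raised, at 11.1 CPM, in one finer cluster of cluster 3.

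The other receptor tyrosine kinases outside the ERBB family varied widely. Of 43 in a list, 26 had at least 100 UMIs. A spread of at least 4 was found in 19 of these, against 34.7% of all genes. In 10 of them one cluster was at least 2 times higher than the next, against 17.5% of all genes. The median spread was 10.5, against 2.70 over all genes with at least 100 UMIs. NTRK3, a neurotrophin receptor, had 202 CPM in cluster 1 and at most 6.36 elsewhere. ROR2, a receptor for WNT5A, and DDR2, a collagen receptor, had 144 and 118 CPM in cluster 2 and at most 9.75 and 19.4 CPM elsewhere. EPHA6, an ephrin receptor, had 22.1 CPM in cluster 3 and at most 2.44 elsewhere, and FGFR4 had 36.8 CPM in cluster 1 and at most 8.47. Cluster 3 was highest for 10 of the 26, and for 18.1% of all genes. LTK, the receptor closest to ALK, had 77 UMIs in all, with 2.51 CPM in cluster 2. ALKAL1 and ALKAL2, the ligands of ALK, had 11 and 15 UMIs over all nuclei.

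Of 19 ligands, 8 had at least 100 UMIs and 5 of these had a spread of at least 4. The share of all genes with such a spread, 34.7%, stands beside each list below, and these lists are short. FGF9 had 10.9 CPM in cluster 0 and at most 3.43 elsewhere, and GAS6 ranged from 2.51 to 7.86 CPM. Of 8 co-receptors and decoys, 3 had at least 100 UMIs (IGF2R, FGFRL1 and CD44). All 3 were highest in cluster 0, as were 22.1% of all genes, and CD44 had 1208 CPM there against 287 to 736 elsewhere. The 14 adaptors and regulators all had at least 100 UMIs, and 5 had a spread of at least 4, with a median of 2.22. GRB2 and PTPN11, which most receptors share, ranged from 95.1 to 120 and from 91.6 to 108 CPM. ERRFI1, a feedback inhibitor, had 38.97 CPM in cluster 2 and at least 141 elsewhere. In the EML family, 3 of 5 relatives of EML4 had a spread of at least 4, and EML5 was highest in cluster 3, with 15.0 CPM. In the 20% portion EML5 had 6.66 CPM in cluster 3, below the 8.05 CPM of cluster 1 and the 7.74 CPM of cluster 4. Of 12 partner genes of ALK, ROS1 and RET fusions, 4 had a spread of at least 4, a share near that of all genes. KIF5B had 635 CPM in cluster 2 against 252 to 296 elsewhere.

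The genes whose pattern over the clusters was most like a member's were taken by the Pearson correlation of log2(CPM + 1) over the 5 clusters, a description over 5 points that share their libraries. Such an r leaves out the size of a change. TCF25, the closest to ROS1, ranged from 172 to 275 CPM only, while ROS1 had a spread of 39.3. ARPC2, the closest to ALK, ranged from 168 to 232 CPM. For RET the r rests on 60 UMIs. With ALK the closest were ARPC2, THORLNC and TPX2 (r of 0.9966 to 0.9995, and 0.658 to 0.823 in the 20% portion). IFT74, BAAT and AC092868.2 were closest to EML4, with 0.932 to 0.960 in the 20% portion. TCF25, DCLK1 and COL6A1 were closest to ROS1 (0.754, 0.905 and 0.994 there), and COL6A1 had 168 CPM in cluster 0 and at most 49.6 elsewhere. CD9, a tetraspanin, was among the 3 closest to MET (0.993 in the 20% portion), with AL132780.1, which ranked first but had 0.208 there, and AC010148.1 (0.846). SFMBT2 was closest to FGFR1 (0.996 in the 20% portion), followed by LINC00607 (0.215) and JAK2 (0.579). AC103876.1, SEC61B and CASC4 were closest to AXL (0.791, 0.794 and 0.969). EDEM3, C5orf38 and SLC38A5 were closest to RET (0.885, 0.907 and 0.503), and AC069029.1, AC010789.1 and RBPMS2 to IGF1R (0.684, 0.974 and 0.905). AC069029.1 also lies within 500 kb of IGF1R.

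Of the 72 genes within 500 kb of a member with at least 100 UMIs, 12, or 16.7%, were highest in the member's own highest cluster, a share near the 15.4% to 25.3% of all genes that were highest in any 1 cluster. Of the genes near MET with at least 100 UMIs, 7 of 10 were highest in cluster 3 and the other 3 in cluster 4, the cluster of MET itself. CAV1, which encodes caveolin, had 1150 CPM in cluster 3 and 781 in cluster 4 against at most 425 elsewhere. Near IGF1R, 4 of 6 were highest in cluster 2, as IGF1R was. Near RET, 6 of 9 were highest in cluster 3, which was highest for 18.1% of all genes. Near FGFR1, 5 of 12 were highest in cluster 0, and near EML4 4 of 7 in cluster 2. Near ROS1 the 4 genes were each highest in a different cluster. PKDCC, a kinase gene next to EML4, had 32.2 CPM in cluster 1 and at most 2.70 elsewhere.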

How the data were processed

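The samples hold nuclei of 5 mixed cell lines, each nucleus read for both RNA and ATAC. The authors deposited counts without normalization in 1 matrix per portion, and per the labels Cell Ranger ARC 2.0.0 was used on GRCh38. Barcodes and peaks had been called by the authors per matrix, and the gene annotation and the use of introns are not given in the sources used here. Long reads were not analysed here. Columns of per-sample values without a sample numbered 0.

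The members and lists were chosen with earlier results of these data known. From the deposited counts, UMIs were log-normalized, and 2000 variable genes (scanpy 1.11.5), 30 components, 20 neighbours and Louvain clustering (Seurat 5.3.0, R 4.3.3, seed 0) gave the RNA clusters, at the lowest resolution (0.03) with at least 5 clusters of at least 1% of nuclei. ATAC clusters came from components 2 to 30 of TF-IDF values, weighted by singular values, a weighting chosen after equal weights had merged RNA clusters 0 and 2 and split cluster 3. Nuclei of the 20% portion went to the cluster with the most correlated mean profile over the variable genes, from which the members had not been removed. Leading genes are the 3 with the largest ratio to the next cluster, without genes of the sex chromosomes. Doublets (Scrublet, expected rate 0.06) were called 385 times and kept unless stated. CPM divides summed counts by all counts of a cluster, so depth limits ALK, RET and ROS1 most. Intervals are exact Poisson or binomial (scipy 1.17.1). Where a count was 0, the level it allows was taken as 3 counts. The upper end of the exact interval is higher, at 0.744 CPM for RET in cluster 4 of the 80% portion. Start-site ATAC sums peaks within 1000 bp of the ends of the deposited start interval. Genes and exons come from GENCODE 44 on hg38. Named genes were the members, list genes with at least 100 UMIs, the 3 most like each member and genes within 500 kb. RET, LTK, ALKAL1, ALKAL2 and the finer clusters described were named after their values were seen. No rule set beforehand which single ATAC peaks inside a gene are described. The ratio step was tested on simulated counts.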

Additional observations from a re-analysis of the deposited data

How the results depend on the processing

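The count of members with a spread of at least 4 was 6 and stayed between 5 and 7 under 10 alternatives, and that in start-site ATAC was 3 and stayed at 2 or 3. The count of members at least 2 times higher in one cluster than in the next was 2 and fell to 1 without doublets, to 1 in the 20% portion and to 1 with the mean of the nuclei's own CPM. RET no longer passed there, and its main ratio is taken to cluster 4 set to 3 UMIs. In the 20% portion RET gave no ratio to the next cluster, because the limit in cluster 4 was above its level in cluster 0. Over 79 log2 ratios of highest to next cluster, 72 stayed within the counting interval of the main value and 7 moved outside it. That 0 changed sign says little, because the highest cluster is divided by the next and RET in the 20% portion was left out. Leaving out finer clusters of mostly doublets was chosen after seeing the data, and gave 7, 2 and 3 for these counts. With no minimum on UMIs, 30.7% of 30692 genes had a spread of at least 4. Without doublets ALK passed the spread limit (15.51 CPM in cluster 0 and 3.75 CPM in cluster 2). Size factors moved no cluster by more than 0.073 on the log2 scale, but put MET past the limit of 2 times (log2 ratio 1.027) and RET below it (0.974). No paired analysis was possible because each portion has 1 library of each kind. Differences between lines cannot be tested with 1 library, and intervals cover counting error only.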
